A study of Mus musculus with 9 samples.

Results

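Neural stem cells (NSCs) keep or erase the methyl marks on their DNA with a small set of enzymes, and the mRNA levels of 8 of them were followed here in cultured NSCs that were moved from growth factors to BMP4. The genes are a list of names that sets no condition on a measured value, though it was drawn up with earlier results of these data known: Dnmt1, Uhrf1, Dnmt3a and Dnmt3b on the writing side, and Tet1, Tet2, Tet3 and Tdg on the erasing side. All 8 were found among the 55704 genes of the expression table. All 8 also passed the filter on low values, a mean of at least 0.1 FPKM over the libraries, that left 20207 genes for testing. FPKM (fragments per kilobase of transcript, scaled to the mapped fragments of the library) is a level per length, and comparisons between genes rest on the gene lengths the authors divided by. Those lengths, as the values imply them, ranged from nearly the annotated exon length for Tet1 and Tet3 to 5374 against 9435 bases for Tdg, and their definition is not given in the sources used here.

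The NSCs came from the subventricular zone (SVZ), a germinal layer of the adult brain, of C57BL/6 mice aged 8 to 9 weeks, with 2 female and 2 male mice pooled for an isolation. They were expanded over several passages and, per the labels, plated on a coated dish with bFGF and EGF, the usual mitogens of NSC culture, before the media were changed. The bFGF/EGF libraries are labelled 0 d and served as the proliferating control. The bFGF/BMP4 libraries were taken 6 d after EGF had been exchanged for BMP4, and the BMP4 libraries 6 d after both mitogens had been exchanged for BMP4, each factor being used at 20 ng/mL. There were 3 libraries in each of the 3 groups, described as biological replicates. Whether each came from its own isolation is not said, so the p-values measure the spread between these libraries. Because the control is labelled 0 d, the change of medium and the 6 d in culture cannot be told apart in a comparison with bFGF/EGF. Both of those comparisons also share the same 3 control libraries. These are bulk cultures, in which fewer cells of a type and less RNA per cell cannot be told apart.

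The libraries held between 15904503 and 17439041 fragments on genes, and log2 values correlated at 0.950 to 0.964 between libraries of one group and at 0.810 to 0.915 between groups. Replicate 2 of bFGF/EGF and replicate 2 of BMP4 stood apart by low values of long genes. In the 402 genes of at least 15000 bases, the median deviation from the group mean was -0.20 on the log2 scale in the former and -0.31 in the latter, against -0.04 to 0.16 in the other libraries. Dnmt3a, Tet1, Tet2 and Tet3 are such long genes, with 15457 to 17740 exon bases, and each had its lowest value of the group in these 2 libraries. Their results are therefore given with and without them. Of the markers of the cell type, Sox2 was high in all groups (means of 167, 137 and 137 FPKM in bFGF/EGF, bFGF/BMP4 and BMP4), while Nes stood at 151, 3.55 and 15.8 FPKM. The summed level of all 10 neural stem cell markers was 1755 to 1886 FPKM in bFGF/EGF, 806 to 901 FPKM in bFGF/BMP4 and 1585 to 1997 FPKM in BMP4. In bFGF/BMP4 against bFGF/EGF, 3 of them were called higher and 5 lower, beside 25% and 23.6% of all tested genes. In BMP4 against bFGF/EGF, 4 were called higher and 1 lower, beside 29.6% and 25.3%. The astrocyte marker Gfap was at 0.0926, 19.4 and 2566 FPKM. Of the ependymal markers, Foxj1 was at 8.26, 10.0 and 55.1 FPKM. All 6 of them summed to 6.82 to 11.4, 10.7 to 11.4 and 55.1 to 64.7 FPKM, and only 3 had a mean of at least 0.1 FPKM. The oligodendrocyte lineage factor Olig2 went the other way, with 565, 246 and 31.7 FPKM. The summed level of all 8 astrocyte markers was 220 to 298 FPKM in bFGF/EGF, 1037 to 1471 FPKM in bFGF/BMP4 and 4054 to 4819 FPKM in BMP4, and that of the 8 oligodendrocyte lineage markers 1563 to 2263, 1320 to 1802 and 243 to 444 FPKM. In BMP4 against bFGF/BMP4, 4 of the 8 astrocyte markers were called higher and 2 lower, beside 12.2% and 8.89% of all tested genes. Of the 6 tested oligodendrocyte lineage markers, 1 was called higher and 2 lower there. The 7 neuron and neuroblast markers summed to 75.9 to 91.9, 47.6 to 53.3 and 142 to 213 FPKM, although Dcx averaged at most 0.904 FPKM in any group. Of the 6 tested, 3 were called higher and 1 lower in BMP4 against bFGF/BMP4, beside 12.2% and 8.89% of all tested genes. Against bFGF/EGF, 2 were higher and 2 lower in BMP4, and 0 were higher and 2 lower in bFGF/BMP4, beside the shares given above. Microglial Cx3cr1 averaged at most 0.0283 FPKM and endothelial Pecam1 at most 0.230 FPKM in any group. All 6 microglia markers summed to 0.411 to 0.876, 0.412 to 0.540 and 1.49 to 1.75 FPKM in bFGF/EGF, bFGF/BMP4 and BMP4. The 6 endothelial and mural markers summed to 0.0590 to 0.0829, 0.827 to 1.11 and 1.12 to 1.78 FPKM. These marker changes lie along the same groups as the results on the 8 genes, and their part in those results was not tested.

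DNA methylation in mammals sits mainly on cytosines that are followed by guanine (CpG). DNMT1 copies the marks onto the new strand after replication, and UHRF1 brings it to the half-marked CpG sites behind the fork. DNMT3A and DNMT3B set marks where there were none. The TET enzymes oxidise methylcytosine with the help of 2-oxoglutarate, and TDG cuts out the further oxidised forms so that base excision repair can put back a plain cytosine. In the adult SVZ, DNMT3A and the TET proteins are known for roles in neurogenesis, and DNMT1 for roles in dividing progenitors. The data here are mRNA levels, and no methylation was measured.

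Promoter sequence was looked at because Dnmt1 and Uhrf1 are classical genes of the replicating cell, and many such genes carry sites for E2F factors, the regulators of entry into S phase. RefSeq promoter windows of 300 bases (250 before the start site and 50 after it) were available for all 8 genes, 13 windows in total, and each was placed on GRCm39 by its sequence. Both strands were searched for 4 forms of the E2F core word, which are TTCCCGC as the first form, TTGGCGC as the second, TTCGCGC as the third and TTGCCGC as the last. A word was present in 1 of the 3 windows of Dnmt1 (with 3 words) and in both windows of Uhrf1 (with 1 word each), and in none of the windows of the other 6 genes. The 5 words with their surroundings, each read 5′ to 3′ along the strand of the gene and with the word in capitals, were these (GCGCGAA is TTCGCGC read on the opposite strand).
Dnmt1, word 219 bases before the start, chr9:20864132-20864138, minus strand, UTR exon: ggtttccgcgcGCGCGAAaaagccggggt
Dnmt1, word 158 bases before the start, chr9:20864071-20864077, minus strand, coding exon: gcaagatgccaGCGCGAAcagctccagcc
Dnmt1, word 34 bases after the start, chr9:20863879-20863885, minus strand, UTR exon: cggggcagcgtTTGGCGCgggctgtgc
Uhrf1, word 48 bases before the start of its first window, chr17:56610289-56610295, plus strand, UTR exon: tgctttctcgcTTCCCGCcacagcgccag
Uhrf1, word 184 bases before the start of its other window, chr17:56611129-56611135, plus strand, UTR exon: ccgagtcgggtTTCGCGCgcccaggcgtc
A "before" word can lie in an exon because another annotated transcript starts upstream. Over all 32851 windows of 27025 genes, 9.57% held such a word and 1.18% held at least 2. Among the DNA replication genes listed for comparison, 13 of 17 windows held one. A match of letters is a description, and a window without one says nothing about the factor.

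The same windows were counted for CpG, since CpG-rich promoters are as a rule kept free of methylation. The Tet2 window held 57 CpG, more than 99.8% of all windows, and the 3 windows of Dnmt3a held 46, 47 and 18. The windows of Dnmt3b (30), Tdg (26), Tet3 (22) and Tet1 (17) and the E2F word windows of Dnmt1 (33) and Uhrf1 (12 and 33) lay above the median of 7 CpG over all windows. The first Dnmt1 window, 2 CpG, was the poorest of the 13.

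Across the set, the mRNAs of Dnmt1, Uhrf1, Tet3 and Tdg were lower in both BMP4 media, and Dnmt3a was lower in BMP4 alone. Tet2 was higher in bFGF/BMP4, and Dnmt3b and Tet1 did not pass the test in any comparison. Calls were made by limma on log2(FPKM + 0.1) over all 9 libraries, with Benjamini-Hochberg adjustment over the 20207 genes and an adjusted p of at most 0.05. In bFGF/BMP4 against bFGF/EGF, 5 of the 8 genes were called (1 higher and 4 lower), where 48.6% of all tested genes were called. In BMP4 against bFGF/EGF, 5 were called, all lower, beside 54.9% of all tested genes in either direction and 25.3% lower. In BMP4 against bFGF/BMP4, 2 were called, both lower, beside 21.1% in either direction and 8.89% lower. The share of the set that was called in either direction was thus near the share over all genes, while its calls were mostly to the lower side. The median log2 fold change of the 8 genes was -0.54, -0.93 and -0.49 in the 3 comparisons, beside medians over all tested genes of 0.06 and 0.10 in the comparisons with bFGF/EGF. With a fold change of at least 2 asked for as well, 4 of the 8 were called in bFGF/BMP4 against bFGF/EGF (1 higher and 3 lower), beside 16.5% higher and 14.1% lower over all tested genes (30.6% together). The same rule called 4 in BMP4 against bFGF/EGF, all lower, beside 21.3% higher and 15.4% lower (36.6% together). It called 1 in BMP4 against bFGF/BMP4, which was lower, beside 8.41% higher and 5.14% lower (13.5% together). The 3 libraries of one group did not overlap those of the other for 5 of the 8 genes in each comparison, which held for 57.7%, 60.4% and 38.7% of all tested genes.

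**Figure D1:**
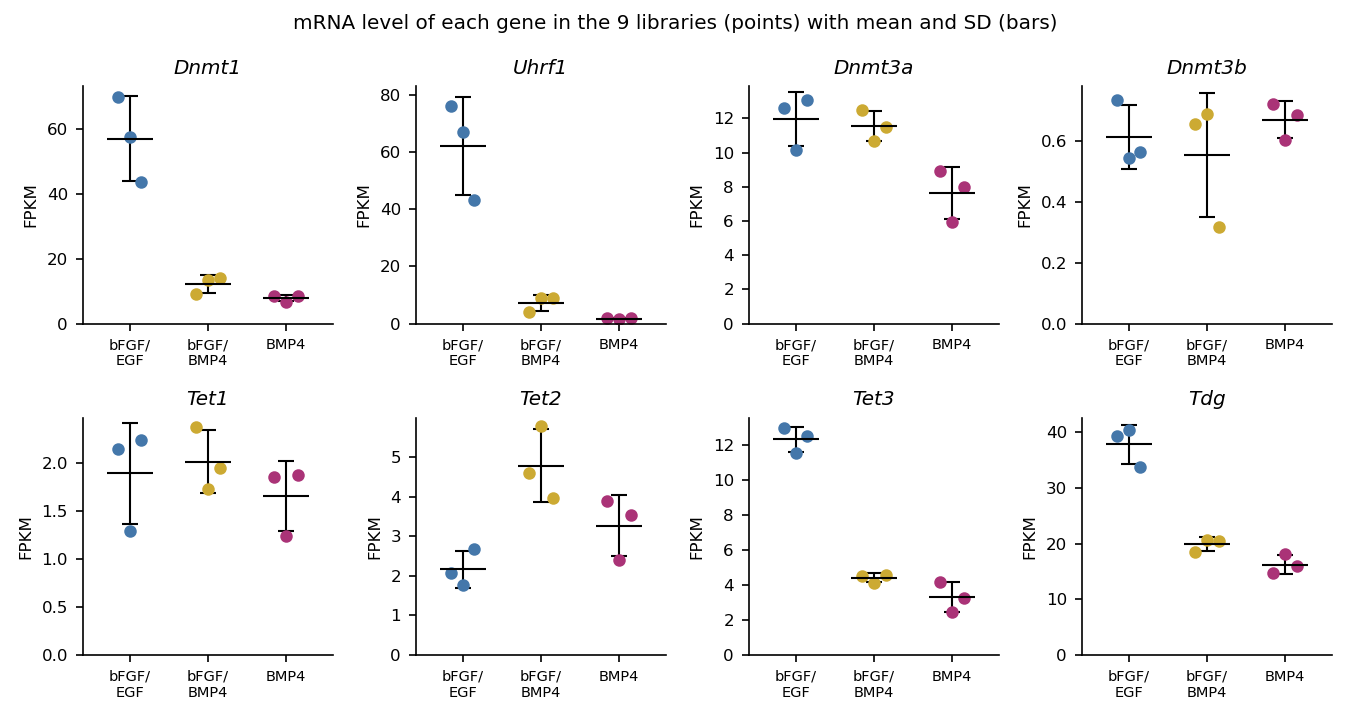
FPKM of each of the 8 genes in the 9 libraries, 1 panel per gene with its own linear axis from 0. Points are libraries, the bars are the group mean and SD (n = 3). Dnmt1, Uhrf1, Tet3 and Tdg had all their bFGF/EGF points above all other points, Tet2 had its highest points in bFGF/BMP4, and the points of Dnmt3b and Tet1 overlapped between groups.

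Dnmt1 (ENSMUSG00000004099, chr9:20817945-20871184 of GRCm39, minus strand), the maintenance methyltransferase, was among the most abundant mRNAs of the set in proliferating NSCs. Its level was 69.8, 57.7 and 43.7 FPKM in the 3 bFGF/EGF libraries, 8.99, 13.5 and 14.1 FPKM in bFGF/BMP4, and 8.40, 6.75 and 8.42 FPKM in BMP4. The 3 groups did not overlap, and every BMP4 library lay below every bFGF/BMP4 library by a narrow margin. The mean fell from 57.0 ± 13.0 FPKM (SD, n = 3) to 12.2 ± 2.77 in bFGF/BMP4, a 4.69-fold lower level with a log2 fold change of -2.22 (SE 0.21, limma adjusted p = 2.0e-05). In BMP4 it was 7.86 ± 0.962 FPKM, 7.26-fold lower (log2 fold change -2.83, SE 0.21, limma adjusted p = 2.8e-06). Between the 2 BMP4 media the difference was -0.60 on the log2 scale (95% interval -1.08 to -0.13) and missed the threshold (limma adjusted p = 0.072). Without bFGF/BMP4 replicate 1, the lowest of its group, it was -0.81 and passed it (limma adjusted p = 0.024).

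Uhrf1 (ENSMUSG00000001228, chr17:56610275-56630489, plus strand), the partner that guides DNMT1 to new DNA, had the deepest fall of the set. Its level was 76.3, 67.0 and 43.1 FPKM in bFGF/EGF, 4.11, 8.98 and 8.84 FPKM in bFGF/BMP4, and 1.95, 1.54 and 1.77 FPKM in BMP4. The groups did not overlap, with every control library at 43.1 FPKM or above and every bFGF/BMP4 library at 8.98 FPKM or below. The mean of 62.1 ± 17.1 FPKM (SD, n = 3) was 8.50-fold above that of bFGF/BMP4, 7.31 ± 2.78 FPKM (log2 fold change -3.11, SE 0.30, limma adjusted p = 2.4e-05). It was 35.5-fold above that of BMP4, 1.75 ± 0.208 FPKM (log2 fold change -5.04, SE 0.30, limma adjusted p = 7.7e-07). Uhrf1 also differed between the BMP4 media, being 4.17-fold lower in BMP4 alone (log2 fold change -1.92, SE 0.30, limma adjusted p = 0.0014). In terms of rank, 96.4% of tested genes had a lower mean than Uhrf1 in the control, 69.6% in bFGF/BMP4 and 44.3% in BMP4. The call held in every alternative fit of every comparison, and under the 2-fold rule.

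Both genes were then set against DNA replication, because the copying of methyl marks is tied to the fork. A list of 20 replication genes (MCM helicase, GINS, origin licensing, polymerase and nucleotide supply genes) was called lower throughout in each BMP4 medium relative to the control. The median of their log2 fold changes was -2.23 for bFGF/BMP4 and -3.25 for BMP4. Between the BMP4 media, 14 of the 20 were lower in BMP4 (median -1.16). All 10 listed mitosis genes were called lower in each of the 3 comparisons, and 9 of them fell further than Uhrf1 between the BMP4 media. Dnmt1 moved within the range of the replication genes: against bFGF/EGF, 10 of the 20 fell further than Dnmt1 in bFGF/BMP4 and 14 of the 20 in BMP4. Uhrf1 fell further than each of the 20 in both comparisons, whose lowest values were -2.96 and -4.73. In BMP4 against bFGF/BMP4, 1 of the 20 fell further than Uhrf1 and 19 further than Dnmt1.

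Within libraries the same could be read as a level relative to replication, that is the gene's log2(FPKM + 0.1) minus the mean of the 20 replication genes. For Dnmt1 this was 1.51 ± 0.0832 (SD, n = 3) in the control, 1.45 ± 0.105 in bFGF/BMP4 and 1.98 ± 0.336 in BMP4. For Uhrf1 it was 1.62 ± 0.0415, 0.66 ± 0.182 and -0.13 ± 0.308, with no overlap between any of the groups. The FPKM ratio of Uhrf1 to Dnmt1 was 1.09, 1.16 and 0.987 in the bFGF/EGF libraries, 0.457, 0.667 and 0.629 in bFGF/BMP4, and 0.232, 0.228 and 0.210 in BMP4. The 3 groups thus lay in separate ranges. The replication mean itself was 4.30, 2.14 and 1.01 on the log2 scale, and bFGF/BMP4 replicate 1, the library with the lowest Uhrf1 and Dnmt1 of its group, also had the lowest replication mean of its group (1.62). With 3 libraries against 3, an exact two-sided permutation test cannot go below p = 0.10, so these ratios are given as a description.

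**Figure D2:**
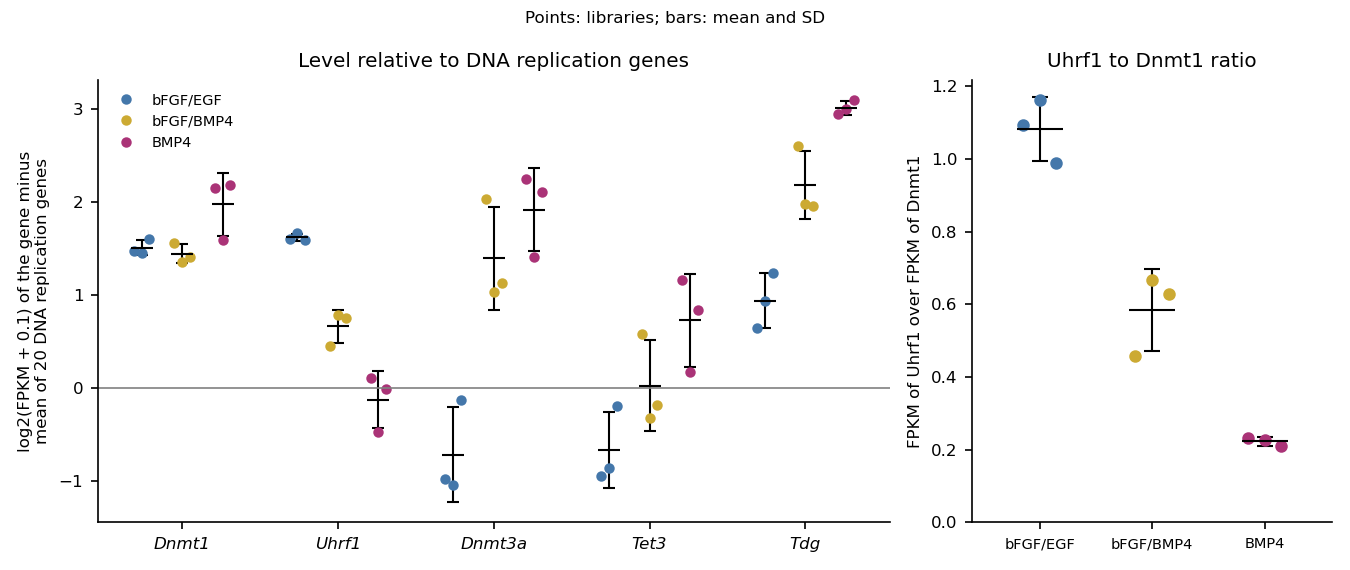
Left, log2(FPKM + 0.1) of 5 genes minus the mean of 20 DNA replication genes in the same library, and right, the FPKM ratio of Uhrf1 to Dnmt1 on a linear axis from 0. Points are libraries and bars the group mean and SD (n = 3). Dnmt1 stayed at 1.51 and 1.45 in bFGF/EGF and bFGF/BMP4 and stood at 1.98 in BMP4, Uhrf1 stepped down from 1.62 to 0.66 and -0.13, and Dnmt3a, Tet3 and Tdg had their lowest means in bFGF/EGF.

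Dnmt3a (ENSMUSG00000020661, chr12:3856007-3964443, plus strand), which sets new methylation marks, lay within the range of the control in bFGF/BMP4 and was lower in BMP4 alone. It was at 12.6, 10.1 and 13.1 FPKM in bFGF/EGF, 12.5, 10.7 and 11.5 FPKM in bFGF/BMP4, and 8.93, 5.95 and 7.99 FPKM in BMP4. The first 2 groups overlapped fully, and all BMP4 libraries lay below both. The difference of bFGF/BMP4 (11.5 ± 0.895 FPKM, SD, n = 3) from bFGF/EGF (11.9 ± 1.57 FPKM) was -0.04 on the log2 scale, with a 95% interval of -0.41 to 0.33 (limma adjusted p = 0.86). BMP4 (7.62 ± 1.53 FPKM) was lower than bFGF/EGF by a log2 fold change of -0.65 (SE 0.17, limma adjusted p = 0.0075) and lower than bFGF/BMP4 by one of -0.61 (SE 0.17, limma adjusted p = 0.026). The latter call was lost, with the same sign, on leaving out bFGF/BMP4 replicate 1 (-0.55, limma adjusted p = 0.087), 2 (-0.67, 0.053) or 3 (-0.61, 0.077) or BMP4 replicate 2 (-0.44, 0.064) or 3 (-0.65, 0.055). Without both libraries that were low in long genes it was -0.44 (limma adjusted p = 0.025), and the difference of BMP4 from bFGF/EGF was -0.60 (0.0042). With the trend on gene length removed, the difference of bFGF/BMP4 from bFGF/EGF became -0.30 and passed the threshold (limma adjusted p = 0.040).

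Dnmt3b (ENSMUSG00000027478, chr2:153490861-153529650, plus strand), the other de novo enzyme, was the scarcest of the set, with 24 to 64 fragments per library. It was at 0.737, 0.545 and 0.565 FPKM in bFGF/EGF, 0.658, 0.689 and 0.320 FPKM in bFGF/BMP4, and 0.724, 0.605 and 0.689 FPKM in BMP4. The groups overlapped. Its log2 differences were -0.17 (95% interval -0.84 to 0.50) for bFGF/BMP4 and 0.12 (-0.55 to 0.79) for BMP4 against bFGF/EGF, and 0.29 (-0.38 to 0.96) between the BMP4 media. None passed the threshold, and the intervals are wide. Dnmt3c, its rodent copy that works in male germ cells, averaged 0.0752, 0.118 and 0.248 FPKM, and reads shared between such copies may have been split.

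Since Dnmt1 fell and Dnmt3a stayed or fell less, the make-up of the Dnmt mRNA pool differed between the control and the BMP4 media. The summed Dnmt level was 69.6 ± 12.9 FPKM (SD, n = 3) in bFGF/EGF, 24.3 ± 1.95 FPKM in bFGF/BMP4 and 16.2 ± 2.52 FPKM in BMP4. Dnmt1 made up 81.5 ± 4.58% of it in the control, 49.7 ± 7.86% in bFGF/BMP4 and 48.8 ± 2.14% in BMP4. Dnmt3a made up 17.6 ± 4.50%, 47.9 ± 7.34% and 47.0 ± 2.39%. Dnmt1 and Dnmt3a mRNA were thus near parity in both BMP4 media, with a Dnmt1 to Dnmt3a ratio of 1.07 ± 0.301 and 1.04 ± 0.0976, against 4.86 ± 1.31 in the control. Dnmt3b contributed 0.890 ± 0.0944%, 2.33 ± 0.954% and 4.19 ± 0.305%. The lowest Dnmt1 share among the BMP4 media, 40.6%, belonged to bFGF/BMP4 replicate 1.

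**Figure D3:**
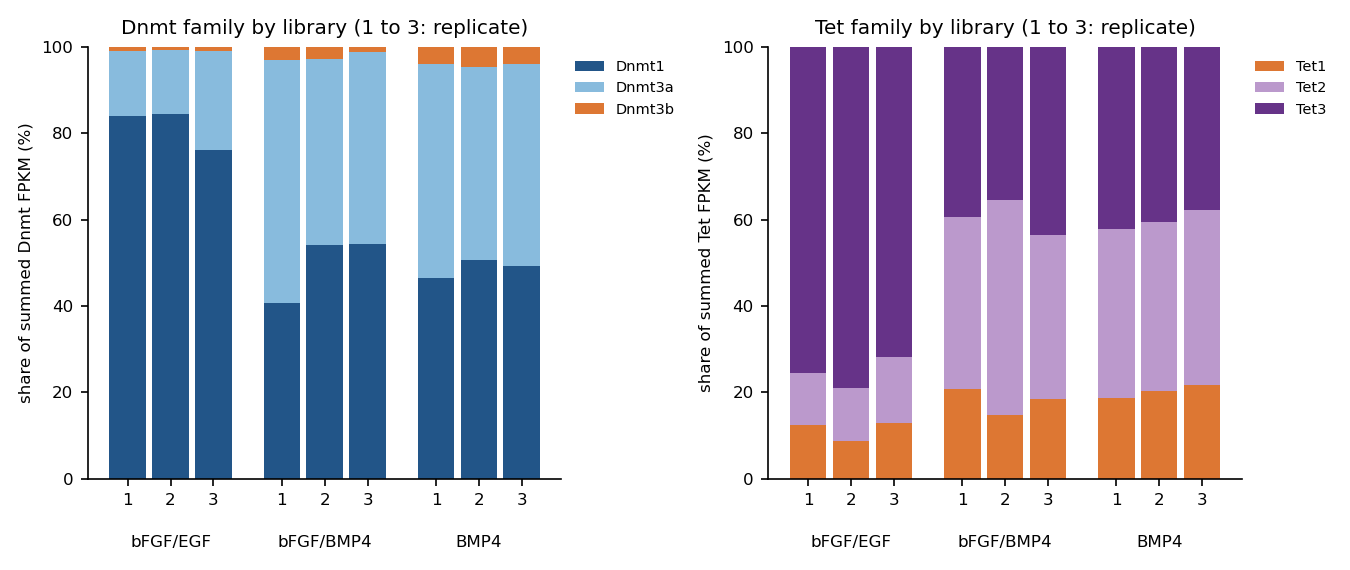
Share of each gene in the summed FPKM of the Dnmt family (left) and of the Tet family (right), in percent, as stacked bars with 1 bar per library. Dnmt1 made up 76.2% to 84.4% of the Dnmt sum in bFGF/EGF and 40.6% to 54.3% in the BMP4 media, and Tet3 made up 71.7% to 79.1% of the Tet sum in bFGF/EGF and 35.4% to 43.6% in the BMP4 media.

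Of the TET dioxygenases, Tet3 (ENSMUSG00000034832, chr6:83339355-83436066, minus strand) was the most abundant in proliferating NSCs and was lower in both BMP4 media. It was at 12.9, 11.5 and 12.5 FPKM in bFGF/EGF, 4.50, 4.12 and 4.59 FPKM in bFGF/BMP4, and 4.17, 2.47 and 3.26 FPKM in BMP4. The control stood clear of both media, while the media overlapped each other. The mean of 12.3 ± 0.712 FPKM (SD, n = 3) was 2.80-fold above that of bFGF/BMP4 (4.40 ± 0.251 FPKM, log2 fold change -1.46, SE 0.18, limma adjusted p = 8.9e-05) and 3.73-fold above that of BMP4 (3.30 ± 0.852 FPKM, log2 fold change -1.90, SE 0.18, limma adjusted p = 1.1e-05). Between the BMP4 media the difference was -0.43 (95% interval -0.83 to -0.04, limma adjusted p = 0.12), and it was called only without BMP4 replicate 1 (-0.61, limma adjusted p = 0.029). Without both libraries low in long genes, the 2 differences from the control were -1.51 and -1.76 (limma adjusted p = 2.3e-04 and 1.7e-04). Tet3 shares 1512 exon bases with Bola3 on the opposite strand, whose level was 11.1, 9.95 and 10.0 FPKM in the 3 groups. The sources used here do not say if strand was taken into account in the counting.

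Tet2 (ENSMUSG00000040943, chr3:133169436-133250900, minus strand) was the only gene of the set that was called higher. It was at 2.06, 1.76 and 2.68 FPKM in bFGF/EGF, 4.59, 5.79 and 3.97 FPKM in bFGF/BMP4, and 3.88, 2.39 and 3.53 FPKM in BMP4. All bFGF/BMP4 libraries lay above all others, and the BMP4 libraries overlapped the control in replicate 2. The mean rose 2.21-fold, from 2.17 ± 0.466 FPKM (SD, n = 3) to 4.78 ± 0.925 FPKM in bFGF/BMP4 (log2 fold change 1.11, SE 0.23, limma adjusted p = 0.0029). In BMP4 it was 3.27 ± 0.776 FPKM, a difference from the control of 0.56 (95% interval 0.04 to 1.08) that missed the threshold (limma adjusted p = 0.063). That difference passed it without BMP4 replicate 2 (0.77, limma adjusted p = 0.019), without bFGF/EGF replicate 3 (0.72, 0.038) and without both libraries low in long genes (0.63, 0.048), which left bFGF/BMP4 at 0.98 (0.0072). Between the BMP4 media the difference was -0.55 (95% interval -1.07 to -0.03, limma adjusted p = 0.13), so the rise in one medium and not in the other was not shown to differ.

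Tet1 (ENSMUSG00000047146, chr10:62640349-62744775, minus strand) was low and did not pass the test anywhere. It was at 2.15, 1.29 and 2.24 FPKM in bFGF/EGF, 2.38, 1.73 and 1.95 FPKM in bFGF/BMP4, and 1.86, 1.24 and 1.87 FPKM in BMP4. The groups overlapped, with the lowest values in the 2 libraries low in long genes. The 95% intervals of its log2 differences ran from -0.46 to 0.69 for bFGF/BMP4 and from -0.74 to 0.41 for BMP4 against bFGF/EGF, and from -0.86 to 0.29 between the BMP4 media. Without the 2 libraries the differences were -0.13, -0.22 and -0.10, none of which passed the threshold either (limma adjusted p = 0.59, 0.38 and 0.76).

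The Tet pool therefore changed in make-up as well as in size. The summed Tet level was 16.4 ± 1.55 FPKM (SD, n = 3) in bFGF/EGF, 11.2 ± 0.606 FPKM in bFGF/BMP4 and 8.23 ± 1.94 FPKM in BMP4. Tet3 made up 75.4 ± 3.67% of it in the control and 39.4 ± 4.13% and 40.1 ± 2.26% in the media. Tet2 made up 13.2 ± 1.93%, 42.5 ± 6.37% and 39.7 ± 0.903%, which put it level with Tet3 in both. The 3 Tet genes are of similar length, but in replicate 2 of bFGF/EGF, low in long genes, 2 shares lay outside those of the other libraries of its group. Tet3 made up 79.1% there, against 75.4% and 71.7%, and Tet1 8.86%, against 12.6% and 12.9%. In replicate 2 of BMP4, also low in long genes, Tet3 made up 40.5%, between the 37.6% and 42.1% of the others. The ratio of summed Dnmt to summed Tet was 4.28 ± 0.853 in the control, 2.17 ± 0.269 in bFGF/BMP4 and 1.99 ± 0.179 in BMP4.

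Tdg (ENSMUSG00000034674, chr10:82465610-82489654, plus strand), the glycosylase that removes the oxidised bases, was lower in both BMP4 media by a smaller factor but with a tight spread. It was at 39.3, 40.3 and 33.8 FPKM in bFGF/EGF, 18.6, 20.7 and 20.6 FPKM in bFGF/BMP4, and 14.6, 18.1 and 16.0 FPKM in BMP4. The 3 groups did not overlap. The mean of 37.8 ± 3.50 FPKM (SD, n = 3) was 1.90-fold above that of bFGF/BMP4 (19.9 ± 1.19 FPKM, log2 fold change -0.92, SE 0.12, limma adjusted p = 1.4e-04) and 2.33-fold above that of BMP4 (16.2 ± 1.73 FPKM, log2 fold change -1.22, SE 0.12, limma adjusted p = 1.6e-05). Between the media the difference was -0.30 (95% interval -0.56 to -0.03, limma adjusted p = 0.11). By FPKM, Tdg ranked highest of the 8 in both BMP4 media, a place that Uhrf1 held in bFGF/EGF. These ranks rest on the lengths divided by, for Tdg 5374 against 9435 annotated exon bases, and were not tested with other lengths. Relative to the 20 replication genes, Tdg went from 0.94 to 2.18 and 3.02 on the log2 scale, as it fell less than they did. Its exons share 5389 bases with Glt8d2 on the opposite strand, which averaged at most 0.220 FPKM in any group, and the processed copy Tdg-ps2 was at 3.12, 1.80 and 1.52 FPKM.

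**Figure D4:**
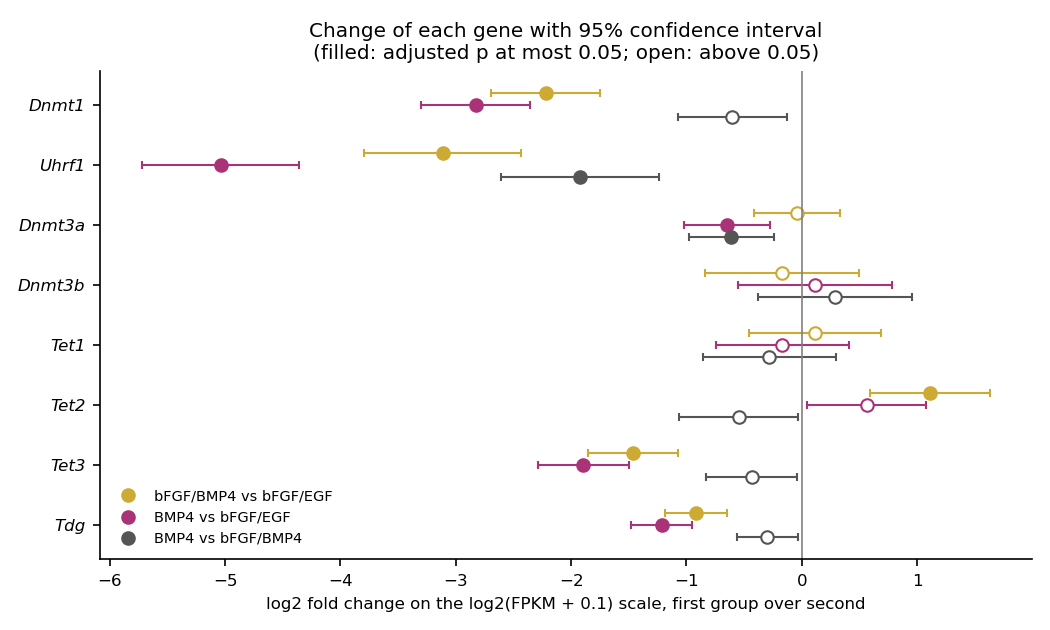
log2 fold change of each gene on the log2(FPKM + 0.1) scale with its 95% confidence interval from limma, for the 3 comparisons, with filled points at an adjusted p of at most 0.05. Uhrf1 lay farthest to the left in all 3 comparisons (-3.11, -5.04 and -1.92), Tet2 in bFGF/BMP4 was the only filled point to the right (1.11), and Dnmt3b and Tet1 had open points throughout.

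The pattern of each gene over the 9 libraries was compared with that of 12946 other genes with a mean of at least 1 FPKM, as Pearson's r of log2(FPKM + 0.1). These values describe 9 libraries in 3 groups and share their depth and scaling. Uhrf1 was closest to Mcm2 (r = 0.999), Timeless (0.999) and Mcm3 (0.997), all of them replication fork genes. Dnmt1 was closest to Fancl (0.997), G3bp1 (0.996) and Prep (0.996), and Tdg to Tmem97 (0.999), Rpl23a (0.996) and Rack1 (0.996), of which the latter pair encode proteins of the ribosome. Tet3 was closest to Lonrf2 (0.994), Jarid2 (0.993) and Fsaf1 (0.992), and for Tet2 the values included Gm43593 (0.985) and Zkscan2 (0.967). For Dnmt3a they were Gm10557 (0.982), Itpr2 (0.954) and Tshz2 (0.953). Dnmt3b and Tet1 had looser neighbours, with Mir5620 (0.913), Hook1 (0.886) and Gm23341 (0.862) for the former and Herc1 (0.921), Fer (0.920) and Gm26931 (0.919) for the latter. Within the set, Dnmt1, Uhrf1, Tet3 and Tdg went together, with r of 0.982 between Dnmt1 and Uhrf1, 0.975 between Dnmt1 and Tdg and 0.952 between Uhrf1 and Tet3. Tet2 went against them, with r of -0.695 to Tdg and -0.644 to Dnmt1.

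The other genes of the pathway were taken from 6 lists with 72 genes, of which 66 were tested. In bFGF/BMP4 against bFGF/EGF, 16 were called higher and 24 lower, beside 25% higher and 23.6% lower over all tested genes. In BMP4 against bFGF/EGF, 21 were higher and 27 lower, beside 29.6% and 25.3%. In BMP4 against bFGF/BMP4, 9 were higher and 10 lower, beside 12.2% and 8.89%. Their median log2 fold changes were -0.15, -0.11 and -0.10. The lists differed in direction, as the following shows.

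**Figure D5:**
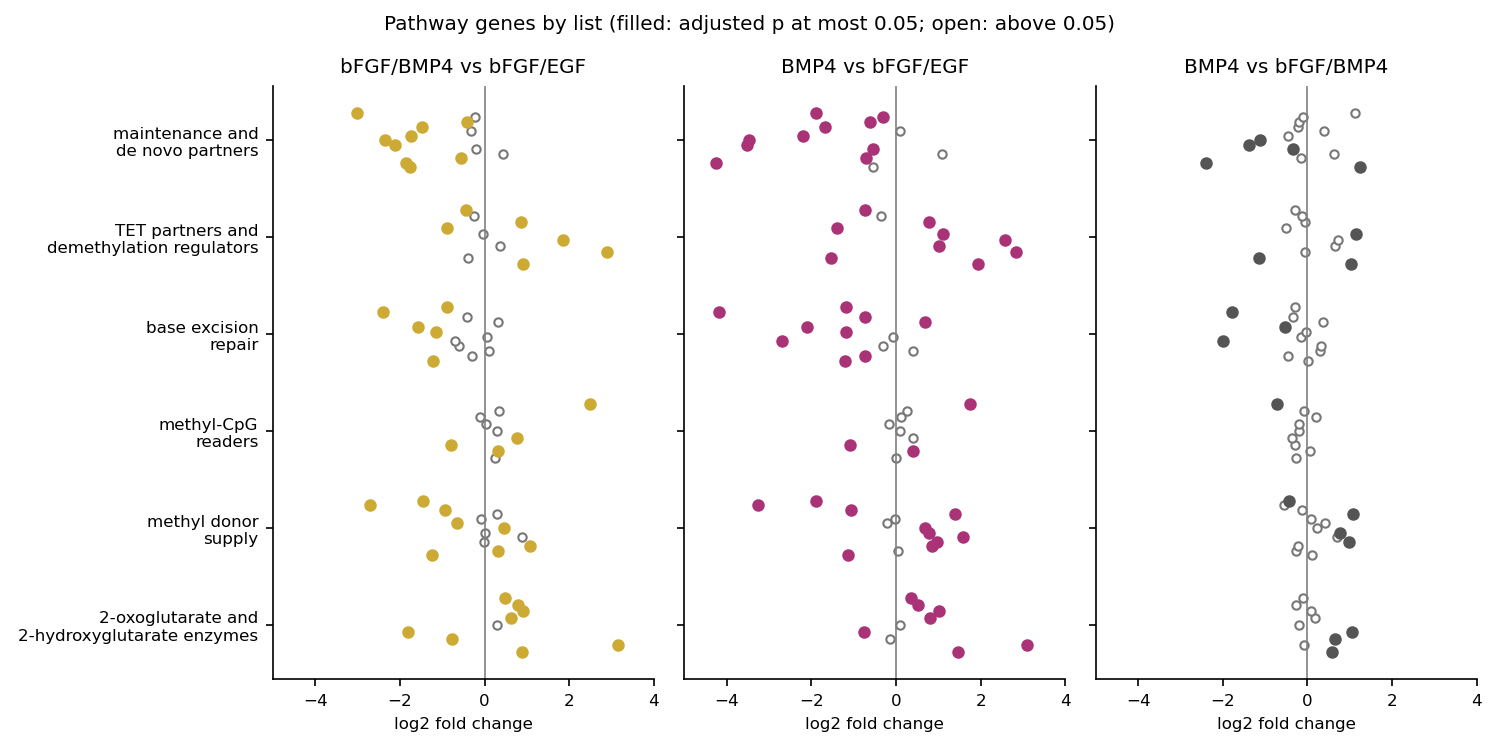
log2 fold change on the log2(FPKM + 0.1) scale of the 66 tested pathway genes, 1 point per gene, by list (rows) and comparison (panels), with filled points at an adjusted p of at most 0.05. In the comparisons with bFGF/EGF, the called points of the partners of maintenance lay to the left of 0 (9 and 10 genes), those of base excision repair did so but for 1 gene (5 of 5 and 8 of 9), and 6 genes of 2-oxoglutarate metabolism lay to the right in both.

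Of the partners of maintenance and de novo methylation, 9 of 13 tested genes were lower and none higher in bFGF/BMP4 against bFGF/EGF. In BMP4 against bFGF/EGF, 10 were lower and none higher. The shares over all tested genes were 23.6% lower and 25% higher in bFGF/BMP4, and 25.3% and 29.6% in BMP4. The median log2 fold changes of the list were -1.47 and -0.72. Hells, the remodelling ATPase that opens chromatin for DNMT1, had 8.99 ± 3.03 FPKM (SD, n = 3) in the control, 2.07 ± 0.980 in bFGF/BMP4 and 0.673 ± 0.0892 in BMP4, with log2 fold changes of -2.12 and -3.51 from the control (limma adjusted p = 6.5e-04 and 1.8e-05). Cdca7l, a paralogue of the HELLS activator Cdca7, fell from 5.77 to 1.51 and 0.207 FPKM, in BMP4 by a log2 fold change of -4.25 (SE 0.24, limma adjusted p = 5.7e-07). Cdca7 itself was at 21.7, 6.17 and 14.6 FPKM. Against bFGF/EGF it was lower in bFGF/BMP4 (-1.77, limma adjusted p = 8.7e-05) and not called in BMP4 (-0.54, limma adjusted p = 0.055). Lig1, the ligase that joins new DNA fragments and is known to recruit UHRF1, had 41.1, 7.86 and 3.45 FPKM (log2 fold change -2.36 in bFGF/BMP4, limma adjusted p = 4.9e-05). Zfp57, the zinc finger protein that protects methylation at imprinted regions, was lowest in bFGF/BMP4, with 3.42, 0.344 and 0.859 FPKM (log2 fold change -3.02, SE 0.36, limma adjusted p = 9.2e-05). Between the BMP4 media 4 of the 13 were lower in BMP4 and 1 was higher, beside 8.89% and 12.2% of all tested genes. The largest of the lower ones were Cdca7l (-2.39) and Hells (-1.39), and the higher one was Cdca7 (1.23, limma adjusted p = 0.0022). Several of these genes also serve replication, as Dnmt1 and Uhrf1 do.

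Base excision repair completes the removal of a mark after TDG, and the list used here also holds glycosylases other than TDG. Against bFGF/EGF, 5 of the 12 tested genes of the list were lower, none higher and 7 not called in bFGF/BMP4. In BMP4, 8 were lower and 1 higher than in bFGF/EGF. Among all tested genes, 23.6% were lower and 25% higher in bFGF/BMP4, and 25.3% and 29.6% in BMP4. The median log2 fold changes were -0.66 and -0.95. Ung, the uracil glycosylase, had 9.12 ± 1.87 FPKM (SD, n = 3), 1.66 ± 0.473 and 0.408 ± 0.115 FPKM (log2 fold changes -2.41 and -4.18, limma adjusted p = 5.6e-05 and 1.1e-06). Parp1, the sensor of strand breaks, had 49.7, 16.7 and 11.6 FPKM (log2 fold change -1.56 in bFGF/BMP4, limma adjusted p = 2.4e-05). Neil3, a glycosylase of dividing cells, had 2.05, 1.23 and 0.217 FPKM (log2 fold change -2.69 in BMP4, limma adjusted p = 1.3e-04). Both Ung (-1.78) and Neil3 (-1.99) were lower in BMP4 than in bFGF/BMP4 too. The 1 gene called higher in BMP4 against bFGF/EGF was Polb, a repair polymerase, at 5.45, 6.76 and 8.76 FPKM (log2 fold change 0.69, limma adjusted p = 0.0025).

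The TET partners and regulators of demethylation went in both directions against bFGF/EGF. In bFGF/BMP4, 4 of 10 were higher and 2 lower, beside 25% and 23.6% of all tested genes. In BMP4, 6 were higher and 3 lower, beside 29.6% and 25.3%. Cxxc5, a CXXC protein that binds TET2 and is a known BMP-induced gene of NSCs, rose from 22.1 ± 1.53 FPKM (SD, n = 3) to 166 ± 22.5 in bFGF/BMP4 and 159 ± 13.2 in BMP4 (log2 fold changes 2.90 and 2.84, SE 0.13 for both, limma adjusted p = 2.0e-07 and 1.6e-07). Gadd45b, a stress gene with a known part in activity-linked demethylation, rose from 4.10 to 14.1 and 24.6 FPKM (log2 fold changes 1.86 and 2.58, limma adjusted p = 0.0011 and 9.8e-05). Gadd45g was at 44.4, 43.3 and 97.3 FPKM and differed between the BMP4 media (log2 fold change 1.15, SE 0.25, limma adjusted p = 0.0082). Apobec1, a cytidine deaminase, was at 0.833, 1.63 and 3.40 FPKM and was higher in BMP4 than in bFGF/BMP4 as well (1.03, limma adjusted p = 0.021). Called lower than bFGF/EGF in both media were Hcfc1 (48.1, 25.9 and 18.6 FPKM) and Thap11 (27.4, 20.1 and 16.5 FPKM). Cxxc4, at 1.06, 0.851 and 0.299 FPKM, was lower in BMP4 than in bFGF/EGF (-1.54, limma adjusted p = 0.0044) and bFGF/BMP4 (-1.15, limma adjusted p = 0.047).

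The list of methyl-CpG readers also takes in Mbd3, Mbd5 and Mbd6 as members of the MBD family, whether or not they bind methylated CpG. Of its 9 genes, 3 were called higher and 1 lower in bFGF/BMP4, and 2 higher and 1 lower in BMP4, against bFGF/EGF. Over all tested genes, 25% were higher and 23.6% lower in bFGF/BMP4, and 29.6% and 25.3% in BMP4. Zbtb4, a zinc finger reader, rose from 1.46 ± 0.153 FPKM (SD, n = 3) to 8.66 ± 1.25 and 5.25 ± 1.17 FPKM (log2 fold changes 2.49 and 1.76, limma adjusted p = 4.7e-06 and 3.0e-05), and was lower in BMP4 than in bFGF/BMP4 (-0.73, limma adjusted p = 0.021). Mbd3, a subunit of the NuRD complex, fell from 135 to 77.0 and 62.9 FPKM (-0.79 and -1.09, limma adjusted p = 7.9e-04 and 7.6e-05).

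The list of methyl donor supply holds genes that make and recycle S-adenosylmethionine. Against bFGF/EGF, 3 of 13 were higher and 5 lower in bFGF/BMP4, beside 25% and 23.6% of all tested genes. In BMP4, 6 were higher and 4 lower, beside 29.6% and 25.3%. The serine hydroxymethyltransferases that feed the folate cycle fell. Shmt1 went from 16.8 ± 2.88 FPKM (SD, n = 3) to 2.52 ± 0.602 and 1.66 ± 0.282 FPKM (log2 fold changes -2.70 and -3.26, limma adjusted p = 5.9e-06 and 1.2e-06), and mitochondrial Shmt2 from 76.3 to 28.0 and 20.6 FPKM (-1.45 and -1.88, limma adjusted p = 9.7e-06 and 1.2e-06). Mtr, the methionine synthase, was at 4.34, 5.41 and 11.8 FPKM and Amd1, which draws S-adenosylmethionine into polyamines, at 36.8, 36.7 and 73.4 FPKM, and both were higher in BMP4 than in bFGF/BMP4 (1.08 and 0.98, limma adjusted p = 0.0033 and 0.0029).

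Enzymes that make or use 2-oxoglutarate, the co-substrate of the TET enzymes, or that clear its inhibitory relative 2-hydroxyglutarate, were mostly higher, with 6 of 9 higher and 2 lower in bFGF/BMP4, and 6 higher and 1 lower in BMP4, against bFGF/EGF. Glud1, the mitochondrial glutamate dehydrogenase, rose from 74.4 ± 7.40 FPKM (SD, n = 3) to 663 ± 13.6 in bFGF/BMP4 and 633 ± 57.8 in BMP4 (log2 fold changes 3.16 and 3.09, SE 0.14 for both, limma adjusted p = 1.7e-07 and 1.4e-07). Glud1 is also a known astrocyte enzyme. Of the 8 astrocyte markers, 7 were called higher and 1 lower in each of these comparisons. Of all tested genes, 25% were higher and 23.6% lower in bFGF/BMP4, and 29.6% higher and 25.3% lower in BMP4. The part of the astrocyte markers in the result was not tested. The exons of Glud1 share 303 of 6868 bases with Gm3219 on the same strand, which was at 1.25, 18.5 and 11.6 FPKM. D2hgdh, which clears 2-hydroxyglutarate, went from 1.33 to 2.50 and 3.82 FPKM (1.46 in BMP4, limma adjusted p = 4.6e-05). Idh2 was lowest in bFGF/BMP4, with 98.1, 27.6 and 57.1 FPKM (-1.81 against bFGF/EGF, limma adjusted p = 9.7e-06), as was cytosolic Idh1 with 83.7, 48.7 and 77.0 FPKM. Both were higher in BMP4 than in bFGF/BMP4 (Idh2 1.05, limma adjusted p = 8.9e-04, Idh1 0.65, 0.0068). Idh2 shares 2491 of its 8475 exon bases with Zfp710 on the opposite strand, which was at 7.23, 3.25 and 2.06 FPKM.

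A list of 15 germline genes, whose promoters are known to be silenced by CpG methylation in somatic cells, was looked at as a readout at the mRNA level. Of these, 11 had at most 8 fragments in every library, 4 of them none at all, and 4 were tested. Sycp3, a protein of the synaptonemal complex, had 0, 0 and 1 fragments in the bFGF/EGF libraries, 28, 33 and 28 in bFGF/BMP4, and 33, 41 and 26 in BMP4. Its level was at most 0.0448 FPKM in a control library and 1.38 to 1.70 FPKM and 1.25 to 2.00 FPKM in those of the BMP4 media, so the control lay apart. Per fragment on genes, the ratio to bFGF/EGF was 89.9 in bFGF/BMP4 (95% exact interval 15.7 to 3589.5, counting error only) and 96.5 in BMP4 (16.9 to 3848.6), on 1 control fragment. Sycp3, however, shares 661 of its 1364 exon bases with Chpt1 on the opposite strand, and Chpt1 was at 5.14, 34.8 and 32.5 FPKM in the 3 groups, lowest in the same group. Without a stated strand setting, fragments of Sycp3 and Chpt1 cannot be told apart there.

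Of the other germline genes, named here after their values were seen, Ddx4 had 3, 8 and 8 fragments in bFGF/EGF, 32, 24 and 18 in bFGF/BMP4, and 67, 61 and 65 in BMP4. Per fragment on genes, the ratio to bFGF/EGF was 3.93 in bFGF/BMP4 (95% exact interval 2.35 to 6.90, counting error only) and 9.80 in BMP4 (6.11 to 16.6). It was called higher in all 3 comparisons (limma adjusted p = 0.0022 and 3.9e-05 against bFGF/EGF, and 0.018 between the BMP4 media), with a mean level of 1.31 FPKM in BMP4. None of its exon bases are shared with another annotated gene. Taf7l had 1, 3 and 6 fragments in bFGF/EGF, none in bFGF/BMP4, and 15, 13 and 4 in BMP4, and was called higher in BMP4 than in bFGF/BMP4 (limma adjusted p = 0.017). Tdrd1, which was too low to be tested, had 6, 8 and 8 fragments in bFGF/EGF, none in bFGF/BMP4, and 0, 2 and 0 in BMP4. Unlike Ddx4, it was thus highest in bFGF/EGF. Brdt stood at 1.33, 1.37 and 1.20 FPKM and was not called.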

How the data were processed

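RNA-seq was done on 9 libraries of mouse NSCs. The submitters' processing notes name fastp 0.19.7, HISAT2 2.0.5, featureCounts 1.5.0-p3 and the mm39 genome. The authors deposited the values as FPKM per gene. Their annotation release, strand setting and length definition are not given in the sources used here. The study's own differential test models raw counts, so limma was used in its place. The study also gives raw counts in a supplement to its article, which were not used here. Whole fragments could be rebuilt from the FPKM steps for all 30860 expressed genes (tolerance 0.02, or 0.06 at high counts) and served for depth, fragment numbers and a limma-voom alternative.

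FPKM were taken as log2(FPKM + 0.1), which understates changes of low genes. Genes with a mean of at least 0.1 FPKM over all libraries were fitted with limma 3.58.1 (trend, R 4.3.3, groups only, 9 libraries sharing 1 spread), adjusted by Benjamini-Hochberg over all genes and called at an adjusted p of at most 0.05. The script was tested on simulated data. Python 3.11.15, pandas 2.3.3, numpy 2.4.6 and matplotlib 3.10.9 did the rest. Positions and overlaps are from GENCODE vM39 on GRCm39.

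The 8 genes and the lists were chosen with earlier results of these data known. Besides the 8, the text names in each list the 2 genes with the largest absolute log2 fold change among those called in a comparison with a mean of at least 1 FPKM, and for each of the 8 the 3 genes most alike over the libraries, of which 1 is not reported here. Alternatives were another pseudocount (1), filter (none, or a mean of at least 1 FPKM), scaling, limma-voom, a replicate block, only the 2 groups compared, a 2-fold rule and leaving out each library. Removing the trend on gene length, and leaving out both libraries low in long genes, were added after the data had been seen. Cdca7, Polb, Hcfc1, Thap11 and Cxxc4 fall outside the naming rule and were named after their values had been seen.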

Additional observations from a re-analysis of the deposited data

How the results depend on the processing

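No result changed direction past the threshold. Uhrf1 was called in all 20 alternative fits of every comparison, Dnmt1, Tet3 and Tdg in all 20 of both comparisons with bFGF/EGF, Dnmt3a in all 20 of BMP4 against bFGF/EGF, and Tet2 in all 20 of bFGF/BMP4 against bFGF/EGF. The 2-fold rule is not among the 20, and under it the calls of Tdg in bFGF/BMP4 against bFGF/EGF (-0.92) and of Dnmt3a in BMP4 against bFGF/EGF (-0.65) and bFGF/BMP4 (-0.61) were lost. In BMP4 against bFGF/BMP4, Dnmt3a was called in 13 of 20 (limma adjusted p from 0.0082 to 0.087), Dnmt1 in 3, Tdg in 3 and Tet3 in 1, and Tet2 in BMP4 against bFGF/EGF was called in 4 of 20. The 2 called of the 8 in BMP4 against bFGF/BMP4 became 4 with quantile normalization, 1 with only the 2 groups fitted, 1 under the 2-fold rule and 1 to 3 on leaving out a library (1 without bFGF/BMP4 replicate 2 or 3 or BMP4 replicate 2 or 3, and 3 without BMP4 replicate 1), and the cause under quantile normalization was not tested. With the 2-fold rule, which is stricter by construction, 20, 30 and 11 pathway genes were called in the 3 comparisons in place of 40, 48 and 19. The 19 became 12 without both libraries low in long genes and 10 to 19 on leaving out a library, with 10 without bFGF/BMP4 replicate 3 and 11 without BMP4 replicate 1. Quantile normalization moved the median log2 fold change of all genes by -0.13 in BMP4 against bFGF/EGF. Libraries with the same number correlated at -0.084 to 0.125 in their deviations from the group means, and those with different numbers at -0.154 to 0.081. The highest value was between replicate 2 of bFGF/EGF and replicate 2 of BMP4, the 2 libraries low in long genes. With 3 libraries in a group, these values cannot settle whether the numbers pair them. With the replicate block the 8 genes gave 5, 5 and 2 calls and the pathway genes 40, 46 and 14. Depth limits mainly Dnmt3b, at 24 to 64 fragments a library.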
